A study of Mus musculus with 66 samples.

Results

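Cultured mouse neurons depleted of Chd8 were set directly against neurons depleted of Med13l. The 12 libraries were chosen by their labels: 6 with an shRNA against Chd8 and 6 with an shRNA against Med13l, of the 66 in the series, which covers 9 chromatin and transcription regulators linked to autism. Each set of 6 held 3 female and 3 male cultures, and no control library entered the comparison. All neurons came from wildtype e16.5 embryos, sorted by sex. Lentivirus delivered a short hairpin RNA, which lowers the mRNA it matches, at a dose meant to leave about 50% of the target by RT-qPCR. The medium with virus was taken away on day 6, and polyadenylated RNA was collected on day 10. As controls for the level of a gene, 6 libraries with a nontargeting shRNA and 6 without virus were used, from the same genotype, sexes and days. The labels describe infection of triplicate wells, so the replicates may be wells of shared cultures, and p-values then measure only the spread between these samples. The number of hairpins per target and their sequences are not given in the sources used here, so an effect of the target and an effect of its hairpin cannot be told apart.

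CHD8 is a chromatin remodeler that uses ATP to move nucleosomes and that binds many active promoters. MED13L is a subunit of the Mediator kinase module, which with CDK8 or CDK19, cyclin C and MED12 docks onto the Mediator complex and controls its contact with RNA polymerase II. Loss of a single copy of either gene in humans causes a neurodevelopmental disorder.

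Total counts of genes with a symbol ranged from 30539837 to 38860120 in the Chd8 libraries and from 24191173 to 47117326 in the Med13l libraries. Fos and Npas4, genes that neuronal firing switches on, set some libraries apart. Fos was at 4.97 and 9.62 CPM, which is the count scaled to library size, in Chd8 female replicate 1 and male replicate 3, and at 10.1 and 25.3 CPM in the Med13l libraries of the same sex and number. It was between 49.0 and 199 CPM in the other 8. These libraries form 2 same-numbered pairs. The comparison was made within the 6 pairs of equal sex and number, and the count of called genes is also given without these pairs.

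Each target was low in its own knockdown. Chd8 had a lowest, median and highest level of 34.4, 36.7 and 40.9 CPM under its shRNA and of 68.0, 96.0 and 101 CPM under the Med13l shRNA. Med13l had 14.9, 28.6 and 31.0 CPM under its own shRNA and 70.2, 75.1 and 100.2 CPM under the Chd8 shRNA. The groups did not overlap for either gene. On the log2 scale Chd8 minus Med13l knockdown was -1.31 (SE 0.078, adjusted p = 7.09e-07) for Chd8, on chromosome 14 (52198151 to 52258042, mm10), and 1.61 (SE 0.117, adjusted p = 2.50e-06) for Med13l, on chromosome 5 (118560330 to 118765438). Against the nontargeting libraries, where Chd8 had a median of 118 CPM, its log2 level was -0.29 in the Med13l knockdown (adjusted p = 0.00148), while Med13l was at 0.02 in the Chd8 knockdown (adjusted p = 0.874).

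The 2 knockdowns differed over much of the transcriptome, mostly by small amounts. Of 14522 genes tested, 8441 (58.1%) passed an adjusted p of 0.05 in the quasi-likelihood F test of edgeR, adjusted after Benjamini and Hochberg. Of these, 4207 (29%) were higher and 4234 (29.2%) lower in the Chd8 knockdown. The median absolute difference was 0.51 on the log2 scale among called genes, and 49.0% of them differed by less than 0.5. A call with a difference of at least 1 was made for 1270 genes (8.75%), 687 higher (4.73%) and 583 lower (4.01%). The 6 and 6 libraries did not overlap for 2816 genes (19.4%), 1369 higher (9.43%) and 1447 lower (9.96%). Without the pairing of sex and number the test called 5595 genes (38.5%), of which 5592 were among the 8441. Without the 2 pairs low in Fos, an alternative chosen after seeing the data, it called 8106, with 7506 shared.

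**Figure D1:**
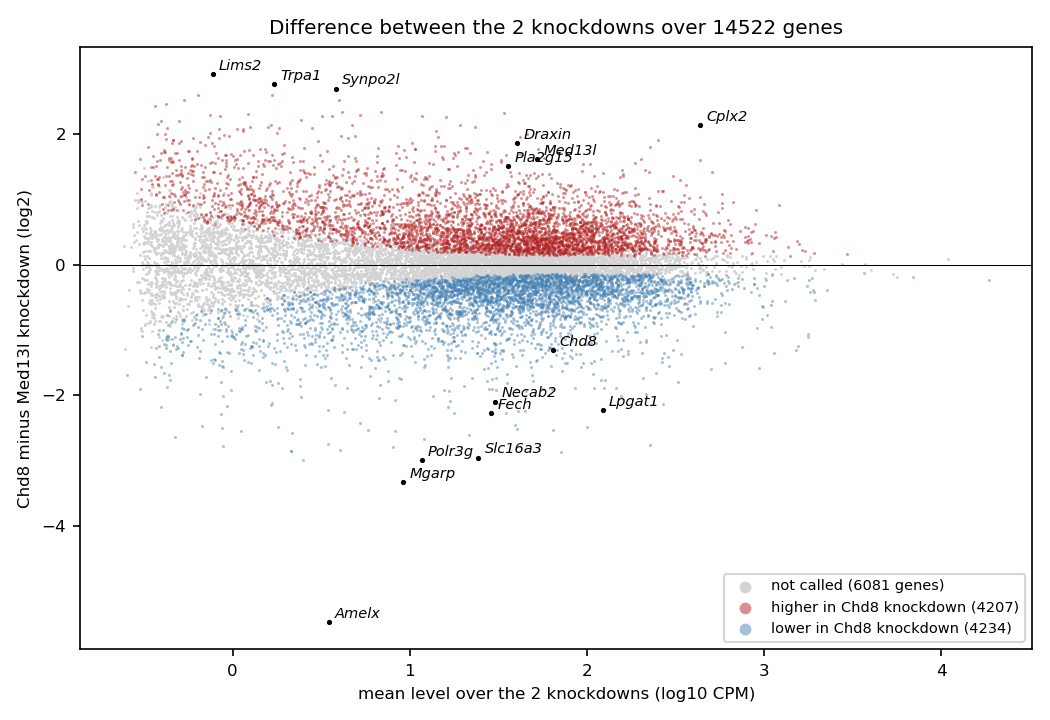
Log2 difference between the knockdowns (vertical, Chd8 minus Med13l) against the mean level over both (horizontal, log10 CPM) for 14522 genes, with genes that passed the test in color and 15 named genes as black points. Amelx lies lowest, and called genes of both directions spread over the whole range of levels.

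The genes with the firmest calls toward a higher level in the Chd8 knockdown were mostly genes that were low in the Med13l knockdown. Ptma, which encodes the abundant nuclear protein prothymosin alpha, was at 68.2, 77.6 and 114 CPM (lowest, median, highest) in the Med13l libraries and at 194, 221 and 291 CPM in the Chd8 libraries, beside 201, 226 and 336 CPM with nontargeting shRNA. Dstn, for the actin-severing protein destrin, was at 82.9, 96.0 and 154 CPM against 306, 343 and 392 CPM, with a difference of 1.79 (SE 0.0963, adjusted p = 4.57e-07). For both genes every Med13l library lay below every Chd8 and every nontargeting library. Fgd1, an exchange factor for the small GTPase CDC42, was at 6.61 to 11.4 CPM against 22.98 to 35.5 CPM. Xxylt1, a xylosyltransferase of Notch receptors, was at 8.88 to 14.7 CPM against 38.7 to 48.5 CPM, and Ints14, an Integrator subunit, at 6.52 to 11.02 CPM against 25.1 to 30.6 CPM. These 5 genes were -1.49 to -1.83 from nontargeting in the Med13l knockdown. In the Chd8 knockdown 4 of the 5 did not pass the test against nontargeting, and the exception was Dstn at 0.24 (adjusted p = 0.0273). Those comparisons called 44.2% of 14845 genes for Chd8 and 48.5% for Med13l, and they share the nontargeting libraries.

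Several of these genes stood apart in both knockdowns or only in the libraries of Chd8. Pla2g15, a lysosomal phospholipase on chromosome 8 (106150354 to 106164718), was at 40.8, 56.9 and 59.7 CPM in the Chd8, 16.4, 18.9 and 21.6 CPM in the Med13l and 33.1, 34.8 and 39.6 CPM in the nontargeting libraries. Every Chd8 library was above and every Med13l library below all nontargeting libraries, and the gene had the smallest p of the genes higher in the Chd8 knockdown (log2 difference 1.51, SE 0.0642, adjusted p = 1.88e-07). Arl2bp, a partner of the small GTPase ARL2, Fam241b and Abhd13 also had a positive difference from nontargeting in the Chd8 knockdown (0.19, 0.44 and 0.35) and a negative one in the Med13l knockdown (-1.34, -1.51 and -0.97). Draxin, a secreted axon guidance protein on chromosome 4 (148098437 to 148131139), differed on the Chd8 side. Its levels were 32.9, 59.9 and 86.5 CPM in the Chd8, 7.77, 18.6 and 25.4 CPM in the Med13l and 12.5, 16.7 and 22.96 CPM in the nontargeting libraries. The Chd8 libraries lay above all others, and the Med13l difference from nontargeting was -0.04 (adjusted p = 0.852).

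The genes with the firmest calls toward a lower level in the Chd8 knockdown were mostly low in that knockdown. Lpgat1, an acyltransferase of lysophospholipids on chromosome 1 (191717554 to 191784255), had the smallest p of all genes. It was at 35.5, 41.6 and 57.7 CPM in the Chd8 libraries, at 154, 210 and 241 CPM in the Med13l libraries and at 138, 167 and 200 CPM with nontargeting shRNA. The log2 difference was -2.23 (SE 0.0617, adjusted p = 1.86e-08), and the Chd8 libraries lay below all others. Fech, the enzyme that inserts iron into protoporphyrin to make heme, was at 8.09 to 11.5 CPM against 43.5 to 52.7 CPM (-2.27, SE 0.0827). Lin7c, a scaffold protein of synapses, was at 51.8 to 86.2 CPM against 214 to 291 CPM, and Necab2, a neuronal calcium-binding protein, at 8.88 to 13.6 CPM against 40.3 to 60.8 CPM. The last 2 did not pass the test against nontargeting in the Med13l knockdown (-0.18 and -0.07).

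Another 6 genes, like Lpgat1 and Fech, passed the test against nontargeting in opposite directions. Tarsl2, a threonyl-tRNA synthetase, was at 11.8 to 20.4 CPM in the Chd8, 66.4 to 82.3 CPM in the Med13l and 44.4 to 53.3 CPM in the nontargeting libraries, with no overlap between any of the groups. Rasgef1a, an exchange factor for Ras-family GTPases, was at 28.6 to 35.1, 81.2 to 103 and 58.9 to 75.4 CPM in the same order, again without overlap. Abcd3, a transporter of the peroxisomal membrane, Fam174b and Pgap2, which remodels the lipid of GPI anchors, were -1.28, -1.49 and -1.72 from nontargeting in the Chd8 knockdown and 0.35, 0.28 and 0.20 in the Med13l knockdown. Setd7, a lysine methyltransferase on chromosome 3 (51515318 to 51560823), showed its larger change in the Med13l knockdown, at 177, 231 and 256 CPM beside 71.2, 91.5 and 120 CPM with nontargeting shRNA and 47.4, 59.4 and 81.2 CPM in the Chd8 knockdown. The targets and these 20 genes kept their direction and their call in each of 23 alternative analyses. Chd8, Draxin, Fam241b, Fgd1, Setd7 and, further on, Mroh5, Lims2 and Med12l overlap gene models on the other strand, and Tarsl2, Pgap2 and Xxylt1 overlap gene models on the same strand (GENCODE M21), so some of their reads may belong to those neighbours.

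**Figure D2:**
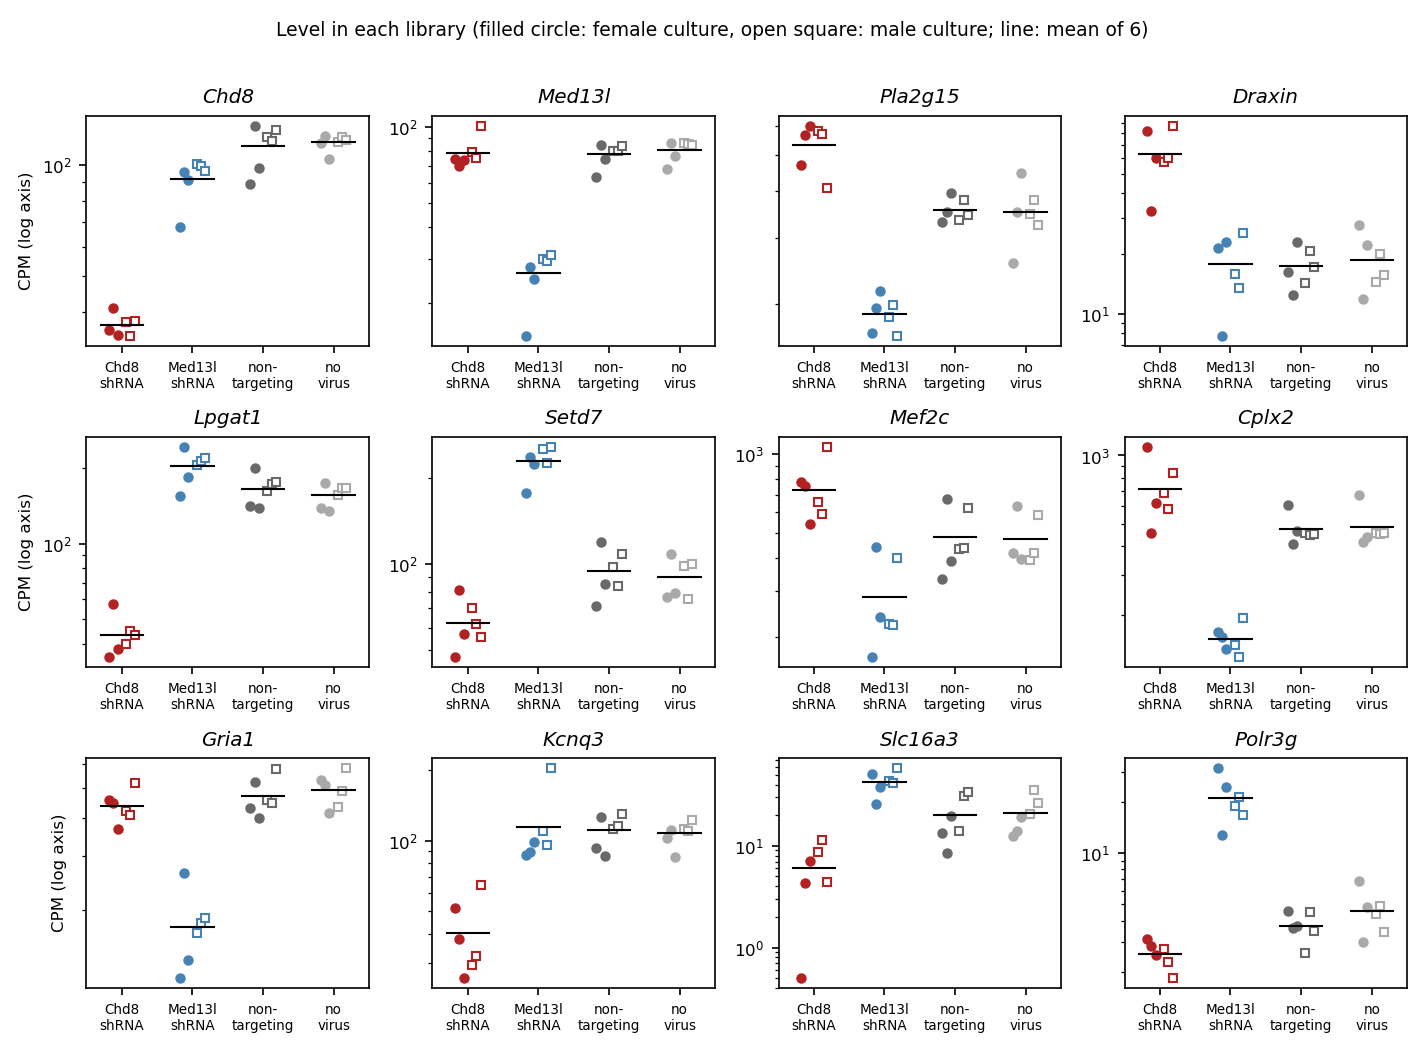
CPM of 12 genes on log axes in each of 24 libraries, by group, with filled circles for female and open squares for male cultures and a line at the mean of 6. Chd8 and Med13l are each low in their own knockdown, Lpgat1 is low in the Chd8 libraries alone, Cplx2 and Gria1 are low in the Med13l libraries, and Setd7 and Polr3g are high there.

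The largest differences were in genes of low level. Amelx, the gene of the enamel protein amelogenin, was counted 346, 19 and 184 times in the 3 female and 117, 96 and 433 times in the 3 male Med13l libraries. In the Chd8 libraries it had 22, 0, 6, 0, 2 and 4 counts, and in the nontargeting libraries 2 counts in a single library and 0 in the other 5. The Chd8 and Med13l libraries overlapped by a narrow margin, at 0.693 CPM for the highest Chd8 and 0.620 CPM for the lowest Med13l library. Amelx lies on chromosome X (169176114 to 169187209) inside a span of Arhgap6 on the other strand. Whether the counts are stranded is not given in the sources used here, so reads of these genes may not be separable. Arhgap6 itself was at 2.70 CPM ± 0.791 (SD, n = 6) in the Chd8 and 2.15 CPM ± 0.641 (SD, n = 6) in the Med13l libraries and was not called (0.33, adjusted p = 0.0917). Polr3g, a subunit of RNA polymerase III, was at 1.85, 2.61 and 3.12 CPM in the Chd8, 12.7, 20.1 and 31.3 CPM in the Med13l and 2.57, 3.67 and 4.58 CPM in the nontargeting libraries (-2.99, SE 0.152).

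On the higher side, Nuf2, a kinetochore protein, was at 2.20 to 3.75 CPM in the Chd8 libraries against 0.260 to 0.757 CPM in the Med13l libraries (2.60, SE 0.222, adjusted p = 6.07e-06). Trpa1, an irritant-gated ion channel, was at 1.88 to 4.67 CPM against 0 to 0.979 CPM, and Mroh5 at 0.957 to 1.22 CPM against 0.0711 to 0.326 CPM. Synpo2l, an actin-associated protein best known in muscle, overlapped, at 2.14 to 13.4 CPM against 0 to 3.26 CPM (2.69, SE 0.292). Nuf2, Trpa1 and Mroh5 did not overlap between the groups.

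The next 5 genes were among those with the largest departures on opposite sides of the nontargeting libraries. Slc16a3, which exports lactate, was at 0.504, 5.70 and 11.4 CPM in the Chd8, 25.9, 42.5 and 57.6 CPM in the Med13l and 8.58, 16.9 and 33.8 CPM in the nontargeting libraries. Every Med13l library lay above every Chd8 library, with a log2 difference of -2.95 (SE 0.421, adjusted p = 0.000194), which did not pass the test in males alone (-2.57, adjusted p = 0.0530). Mgarp, a mitochondrial protein induced by low oxygen, was at 0, 1.99 and 2.60 CPM against 8.26, 16.1 and 26.9 CPM. Lims2, an adaptor of integrin adhesions, ran the other way, at 0.944 to 1.90 CPM against 0 to 0.359 CPM. H2-K1, a class I histocompatibility antigen, was at 7.74 to 29.3 CPM against 48.6 to 219 CPM, and H2-Q6, of the same family, at 0 to 0.318 CPM against 0.522 to 1.20 CPM. Class I genes have near-identical copies, and how reads shared between copies were counted is not stated, so these 2 values are uncertain.

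Mediator genes were examined beside the knocked-down subunit. In the kinase module, 3 of 7 members, the target Med13l among them, were higher in the Chd8 knockdown and 1 was lower. That is 57.1% called, beside 58.1% of all genes. Besides Med13l these were Cdk19, 1 of the 2 alternative kinases, at 48.9, 52.7 and 56.8 CPM against 12.03, 20.5 and 25.1 CPM (1.41, SE 0.131, adjusted p = 9.93e-06), Med13, the paralog of Med13l (0.36, SE 0.12, adjusted p = 0.0255), and, lower, Med12l (-0.89, SE 0.107). Cdk19 was -1.20 from nontargeting in the Med13l knockdown (adjusted p = 3.32e-07) and 0.20 in the Chd8 knockdown (adjusted p = 0.144). The Med13 call was lost in 8 of the 23 alternatives, among them the fit without pairing (adjusted p = 0.441). It was also lost without Chd8 or Med13l female replicate 3 (adjusted p = 0.0625 and 0.0584), Chd8 or Med13l male replicate 1 (0.0576 and 0.0582) or Med13l male replicate 3 (0.0554), and the difference was 0.22 and 0.21 without Chd8 or Med13l female replicate 1. Med12, Cdk8 and Ccnc, the cyclin C gene, were not called (0.16, -0.00 and -0.06). Of 25 core Mediator genes tested, 7 were higher and 3 lower, or 40.0% called beside 58.1% of all genes. Med9 alone of these differed by more than 1, at 7.78 to 15.4 CPM in the Chd8 and 40.9 to 44.4 CPM in the Med13l libraries (-1.78, SE 0.117), and at 31.6 to 37.1 CPM with nontargeting shRNA. Without pairing 6 core genes were called (24%, beside 38.5% of all genes).

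Among histone methyltransferase complexes of the MLL and COMPASS type, 9 of 15 members were higher in the Chd8 knockdown and 1 was lower, beside 29% and 29.2% of all genes. Ncoa6, a coactivator in these complexes, was at 81.7, 98.1 and 108 CPM against 25.8, 43.6 and 63.2 CPM (1.18, SE 0.101), and at 63.0, 102 and 135 CPM with nontargeting shRNA. Dpy30, a core subunit shared by these complexes, ran the other way (-0.62, SE 0.108) with overlapping groups. Of 10 CHD remodelers, 4 were higher and 3, with Chd8 among them, lower (3 called in all, or 30%, without pairing). Chd6 was at 75.4 to 102 CPM against 34.7 to 63.8 CPM (0.77, SE 0.0875). In the Integrator complex, which cleaves nascent RNA, 6 of 14 members were higher and 2 lower, a share called of 57.1% beside 58.1% of all genes, with Ints14 (above), Ints9 (0.53) and Ints10 (0.52) on the higher side. Ints14 and Fech were known from earlier work on these data when the Integrator and heme lists were drawn up, so those lists are not independent of these genes.

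Most genes of oxidative phosphorylation in mitochondria were lower in the Chd8 knockdown. Of 73 members, 70 were lower, 1 was higher and 2 were not called, beside 29.2% lower among all genes. The median was -0.54, and between -0.998 and -0.38 in the 6 pairs, while the median of all genes was 0.00. Against nontargeting, 65 of the 73 were higher and 1 lower in the Med13l knockdown, beside 24.3% and 24.3% of all genes. In the Chd8 knockdown 30 were lower and 2 higher, beside 22.9% and 21.2%. Without the pairing, 37 were higher and 1 lower in the Med13l knockdown, beside 13.8% and 14.4%. In the Chd8 knockdown 14 were then lower and 0 higher, beside 14.2% and 11.9%, so the lower count was not far above the share of all genes. Between the knockdowns 62 genes were called without pairing (84.9%, beside 38.5% of all genes).

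Promoters of 4 of these genes are given as examples. They run from 250 bases before to 50 after the annotated start in RefSeq (GRCm38.p6, all 4 on the minus strand) and are printed 5′ to 3′. Capitals mark each copy of the ETS-family letters CCGGAAG or the reverse complement. Cox8a, Uqcrh and Sdhd were chosen, among members called lower, for having such copies. Cox7a2 is printed as the member called higher. It has no copy, which is also the case for most promoters of the list. The contrast between these 4 was thus set by the choice, and a link of the letters with direction was not tested. In the order printed, the promoters lie at chr19:7217567-7217866, chr4:116075021-116075320, chr9:50603800-50604099 and chr9:79759804-79760103.
Cox8a: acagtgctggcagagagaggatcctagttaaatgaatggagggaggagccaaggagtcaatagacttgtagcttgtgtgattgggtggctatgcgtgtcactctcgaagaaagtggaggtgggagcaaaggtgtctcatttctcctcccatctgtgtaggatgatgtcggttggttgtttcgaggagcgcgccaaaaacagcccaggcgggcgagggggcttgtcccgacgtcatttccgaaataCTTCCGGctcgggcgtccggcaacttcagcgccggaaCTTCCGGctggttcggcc
Uqcrh: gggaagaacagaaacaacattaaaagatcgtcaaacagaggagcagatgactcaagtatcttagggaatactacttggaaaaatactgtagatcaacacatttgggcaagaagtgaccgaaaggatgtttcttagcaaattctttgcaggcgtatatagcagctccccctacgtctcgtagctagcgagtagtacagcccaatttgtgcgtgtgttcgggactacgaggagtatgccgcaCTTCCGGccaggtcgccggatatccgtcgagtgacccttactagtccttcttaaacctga
Sdhd: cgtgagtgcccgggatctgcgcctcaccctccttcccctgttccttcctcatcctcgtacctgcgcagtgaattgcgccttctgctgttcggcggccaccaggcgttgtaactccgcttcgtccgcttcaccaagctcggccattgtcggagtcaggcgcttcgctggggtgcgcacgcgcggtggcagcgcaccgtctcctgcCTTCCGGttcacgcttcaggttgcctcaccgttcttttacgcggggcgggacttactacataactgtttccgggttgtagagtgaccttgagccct
Cox7a2: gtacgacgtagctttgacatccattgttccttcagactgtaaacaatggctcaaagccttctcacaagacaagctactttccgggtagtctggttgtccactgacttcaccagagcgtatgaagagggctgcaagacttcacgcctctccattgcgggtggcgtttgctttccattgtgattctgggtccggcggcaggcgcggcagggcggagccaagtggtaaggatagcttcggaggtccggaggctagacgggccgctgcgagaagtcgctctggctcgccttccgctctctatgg

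These letters were found on either strand in 16 of 66 promoters (24.2%) that belong to 61 of the 73 genes, and in 8.86% of 32851 promoters in the whole table. The whole table covers 27025 genes, of which only 11382 were tested here. It therefore includes many genes that did not pass the filter on counts, and a share over the tested genes is not given. The median GC content of the promoters was 58.0% against 52.7%. A match is a description of the letters, not a site. Of the other motifs searched, the share was 7.58% against 0.971% for the NRF1 motif, 7.58% against 0.852% for the YY1 motif, 6.06% against 1.79% for the CRE letters TGACGTCA and 1.52% against 3.84% for the longer NFY letters GATTGGCT. It was 9.09% against 7.15% for the E-box letters CACGTG, 40.9% against 37.4% for the NFY letters CCAAT, which the longer form partly overlaps on the other strand, 36.4% against 35.7% for the SP letters GGGCGG and 9.09% against 13.6% for the TATA letters TATAAA. The same search over all called genes is not given, since only 78.4% of the genes tested had a promoter in the table. For the oxidative phosphorylation list this was 83.6%, so its shares also leave out part of the genes.

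Cox8a, a subunit of cytochrome c oxidase, was at 103, 126 and 152 CPM in the Chd8 libraries and at 200.2, 234 and 324 CPM in the Med13l libraries, beside 168, 237 and 290 CPM with nontargeting shRNA. Its Chd8 libraries lay below all others. Uqcrh, a subunit of complex III, was at 173, 195 and 280 CPM against 238, 305 and 713 CPM, and Sdhd, of complex II, at 116, 161 and 182 CPM against 180, 233 and 332 CPM, both with overlap. Among the members with the smallest p, Atp5g3, of the ATP synthase ring, was at 185, 209 and 230 CPM against 332, 358 and 391 CPM (-0.80, SE 0.0627, adjusted p = 3.89e-06), and 251, 270 and 287 CPM with nontargeting shRNA. The 3 groups of Atp5g3 did not overlap. Sdha, of complex II, differed by -0.60 (SE 0.0551). Cox7a2, the exception, was at 167, 185 and 256 CPM against 82.0, 96.6 and 152 CPM (0.93, SE 0.0686, adjusted p = 2.60e-06), and was -1.04 from nontargeting in the Med13l knockdown.

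Cytosolic ribosomal proteins followed the same direction. Of 79 genes, 68 were lower in the Chd8 knockdown and 0 higher, with a median of -0.40 (-0.90 to -0.17 in the 6 pairs), and without pairing 28 were called, all of them lower (35.4%, beside 19.4% lower among all genes). In the Med13l knockdown 74 were higher than nontargeting (32 without pairing), beside 24.3% of all genes (13.8% without pairing). In the Chd8 knockdown 7 were higher and 2 lower than nontargeting (1 and 1 without pairing). Of all genes 21.2% were higher and 22.9% lower there (11.9% and 14.2% without pairing). Rpl3 was at 260, 277 and 305 CPM in the Chd8, 403, 478 and 607 CPM in the Med13l and 302, 325 and 355 CPM in the nontargeting libraries. Rpl10 was at 94.6, 145 and 163 CPM against 236, 292 and 382 CPM, beside 192, 253 and 305 CPM. Many ribosomal protein genes, and Ptma above, have near-identical processed copies, so their counts depend on how shared reads were assigned, which is not stated.

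Lipid and heme synthesis genes were mostly lower in the Chd8 knockdown, beside 29.2% lower among all genes. Of 24 genes of cholesterol synthesis and its SREBP control, 19 were lower and 2 higher, with a median of -0.32. Against nontargeting, 19 were lower and 0 higher in the Chd8 knockdown, beside 22.9% and 21.2% of all genes. In the Med13l knockdown 8 were lower and 2 higher, beside 24.3% and 24.3%. Mvd, of the mevalonate pathway, was at 55.3, 61.6 and 70.8 CPM in the Chd8 and 74.6, 121 and 159 CPM in the Med13l libraries (-0.88, SE 0.12). Srebf2, the regulator of the pathway, was among the 2 that were higher (0.39, SE 0.0627). Of 11 genes of fatty acid synthesis, 6 were lower and 2 higher (5 called without pairing), among them the desaturase Scd1 (-1.04, SE 0.0627), with overlapping groups. Of 8 heme synthesis genes, 5 were lower and 0 higher. After Fech the largest differences were Urod (-0.84, SE 0.0924) and Cpox (-0.54, SE 0.0663), which were 0.69 and 0.48 from nontargeting in the Med13l knockdown and -0.15 and -0.06, neither called, in the Chd8 knockdown.

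**Figure D3:**
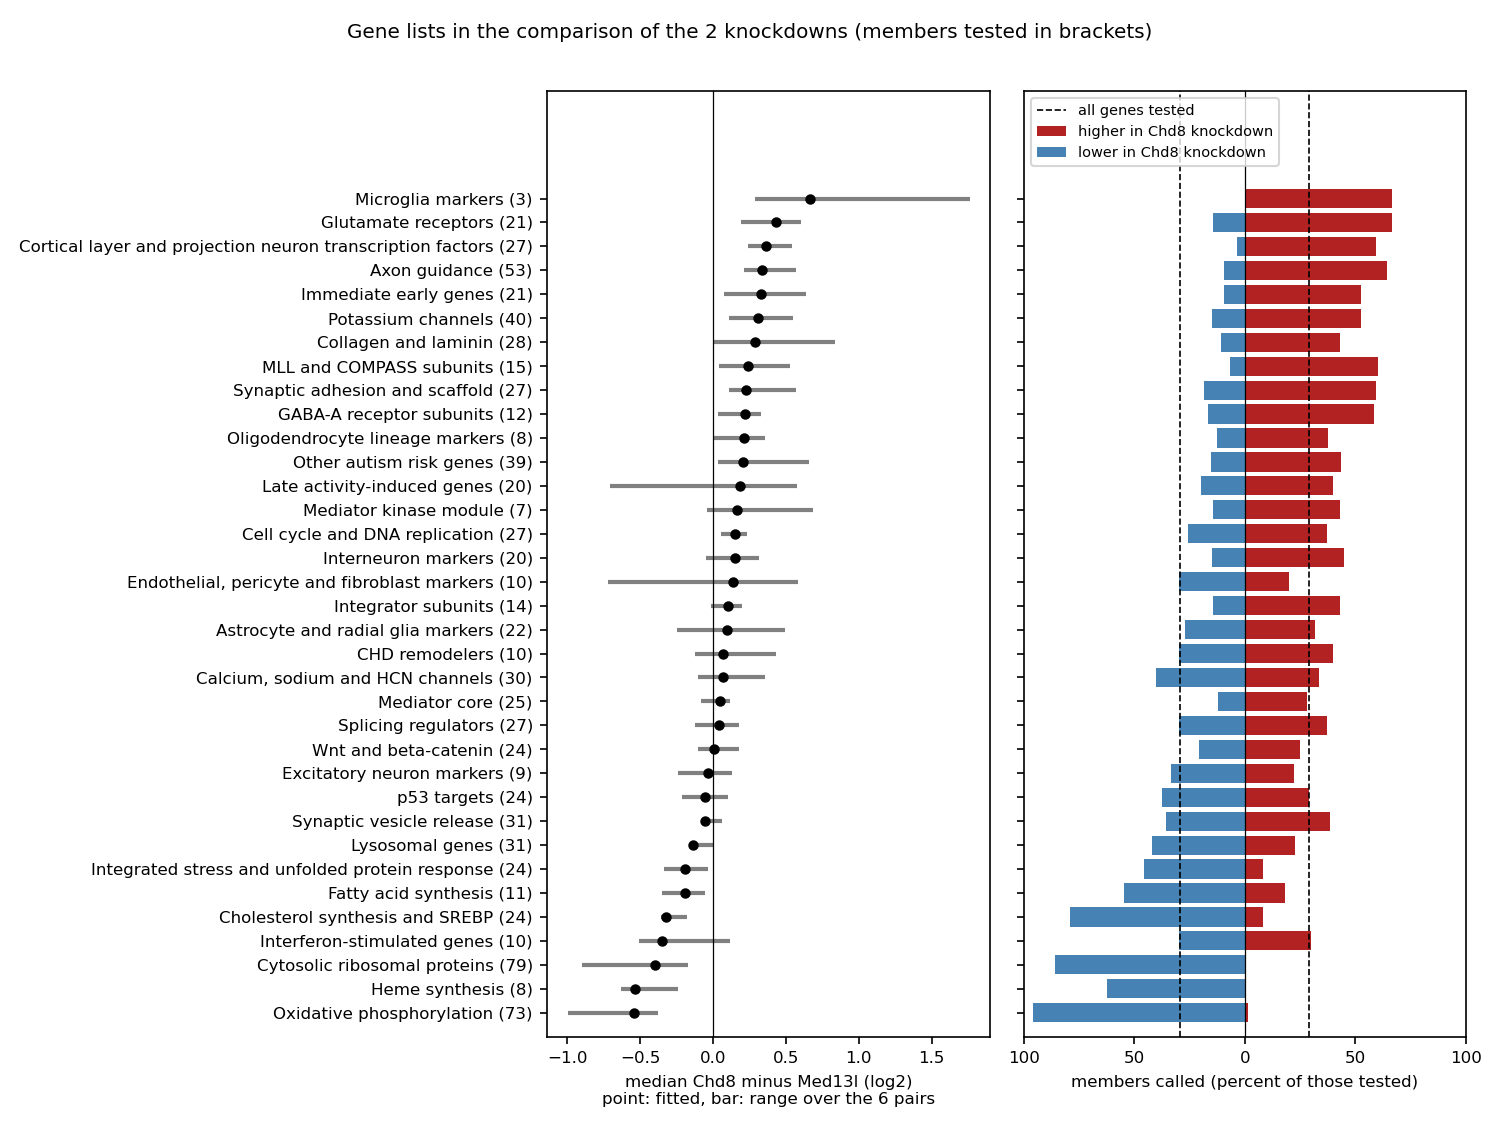
For 35 gene lists, the left panel gives the median log2 difference (point) and its range over 6 pairs (bar), and the right panel the percent of tested members called higher (red) or lower (blue), with dashed lines at the share over all genes. Oxidative phosphorylation, ribosomal protein, heme and cholesterol genes lie at the bottom, and glutamate receptors, cortical transcription factors and axon guidance genes near the top, where the microglia list rests on 3 genes.

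Lists of neuronal signalling genes differed from each other in direction, and their counts stand beside 29% higher and 29.2% lower among all genes, and 38.5% called without pairing. Of 21 glutamate receptor genes, 14 were higher and 3 lower, with a median of 0.44 (0.20 to 0.60 in the 6 pairs), and 10 were called without pairing. Gria1, an AMPA receptor subunit, was at 369, 434 and 519 CPM in the Chd8, 120, 174 and 263 CPM in the Med13l and 398, 452 and 575 CPM in the nontargeting libraries (1.35, SE 0.12, adjusted p = 7.66e-06). Every Med13l library was below all Chd8 and nontargeting libraries. Grin2d, an NMDA receptor subunit, was lower in the Chd8 knockdown, at 9.32 to 16.1 CPM against 18.9 to 28.0 CPM (-0.72, SE 0.0887). Grm2, a metabotropic receptor, differed by 0.77 (SE 0.069), with overlap and without a call when unpaired (adjusted p = 0.0659). Of 12 GABA-A receptor subunits, 7 were higher and 2 lower (3 called without pairing), with Gabrb2 at 0.94 (SE 0.125).

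Genes of the transmitter release machinery split. Of 31, 12 were higher and 11 lower in the Chd8 knockdown, with a median of -0.06, and 12 were called without pairing. Cplx2, a complexin that clamps vesicle fusion, was at 458, 652 and 1084 CPM in the Chd8 and 132, 154 and 194 CPM in the Med13l libraries (2.14, SE 0.119, adjusted p = 5.20e-07), and at 412, 456 and 607 CPM with nontargeting shRNA. Pclo, an active zone scaffold, was at 205, 330 and 383 CPM against 45.1, 130 and 191 CPM (1.44, SE 0.128). Syn2, a synapsin, ran the other way, at 91.6, 102 and 150 CPM against 172, 203 and 263 CPM (-0.88, SE 0.0798), beside 209, 247 and 308 CPM. Cplx2 and Pclo were thus low in the Med13l knockdown and Syn2 in the Chd8 knockdown. Against nontargeting 19 of the 31 were lower in the Chd8 and 18 in the Med13l knockdown, beside 22.9% and 24.3% of all genes. Without pairing these were 13 and 11, beside 14.2% and 14.4%.

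Of 27 synaptic adhesion and scaffold genes, 16 were higher and 5 lower (13 called without pairing), with Cntnap2 at 0.92 (SE 0.102) and Lrrtm2 at 0.78 (SE 0.0661). Of 40 potassium channel genes, 21 were higher and 6 lower (14 called without pairing). Kcnj6, an inward rectifier, was at 11.2 to 14.5 CPM against 1.77 to 7.08 CPM, while Kcnq3, of the M current, was at 26.1 to 64.8 CPM against 86.8 to 203 CPM (-1.50, SE 0.135). Kcnq3 had 86.1 to 130 CPM with nontargeting shRNA, above all Chd8 libraries. The calcium, sodium and HCN channels split, with 10 of 30 higher and 12 lower (11 called without pairing). The sodium channel subunit Scn2b was at 47.9 to 66.6 CPM against 146 to 180 CPM (-1.51, SE 0.0827), beside 81.3 to 91.9 CPM, and so lay on opposite sides of the controls without overlap, and Cacng2, which escorts AMPA receptors, differed by 0.87 (SE 0.076).

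Axon guidance genes and cortical transcription factors were more often higher than lower in the Chd8 against the Med13l knockdown, beside 29% higher and 29.2% lower among all genes. Of 53 guidance genes, 34 were higher and 5 lower in the Chd8 knockdown, with a median of 0.34 (0.21 to 0.57 in the 6 pairs), and 18 were called without pairing (34.0%, beside 38.5% of all genes). Against nontargeting, 16 were higher and 10 lower in the Chd8 knockdown, beside 21.2% and 22.9% of all genes. In the Med13l knockdown 1 was higher and 23 lower, beside 24.3% and 24.3%. Without pairing the Chd8 counts were 7 and 5, beside 11.9% and 14.2% of all genes, and so near or below those shares. The Med13l counts were then 1 and 11, beside 13.8% and 14.4%. Draxin (above) and Ntn4, a netrin, were high in the Chd8 libraries, Ntn4 at 11.9, 16.9 and 19.2 CPM against 4.76, 7.35 and 10.1 CPM (1.11, SE 0.0999) and 4.74, 6.03 and 8.29 CPM with nontargeting shRNA. Efna5, an ephrin, differed by 1.61 (SE 0.155) and was -1.11 from nontargeting in the Med13l knockdown. Unc5d, a netrin receptor, was low in the Chd8 libraries, at 36.6 to 59.3 CPM against 67.3 to 131 CPM (-1.10, SE 0.0895).

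Of 27 transcription factors of cortical layers and projection neurons, 16 were higher and 1 lower in the Chd8 knockdown, with a median of 0.36 (0.24 to 0.54 in the 6 pairs), and 11 were called without pairing. Mef2c, an activity-responsive factor of cortical neurons, was at 538, 704 and 1059 CPM in the Chd8, 168, 232 and 444 CPM in the Med13l and 332, 437 and 675 CPM in the nontargeting libraries (1.42, SE 0.144, adjusted p = 1.77e-05). The knockdowns did not overlap, and each overlapped the controls. Bhlhe22 differed by 0.71 (SE 0.0566), and Lmo4 was the member lower in the Chd8 knockdown (-0.39, SE 0.0562, not called without pairing, adjusted p = 0.0889). Of 39 genes linked to autism, 17 were higher and 6 lower (14 called without pairing, or 35.9%). Without the 2 targets, which had to differ, 16 of 37 were higher and 5 lower, so 56.8% were called beside 58.1% of all genes. Tcf4 was at 430, 498 and 613 CPM against 153, 217 and 352 CPM (1.21, SE 0.0952).

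Genes that neuronal activity induces were called about as often as all genes with pairing, and less often without it. Of all genes 58.1% were called, and 38.5% without pairing. Of 21 immediate early genes, 11 were higher and 2 lower in the Chd8 knockdown (61.9% called). These were 52.4% and 9.52%, beside 29% higher and 29.2% lower among all genes. Only 2 of the 21 (9.52%) were called without pairing, and 7 higher and 0 lower without the 2 pairs low in Fos. Egr1 was at 29.99, 38.8 and 42.3 CPM against 19.5, 25.5 and 31.6 CPM (0.61, SE 0.0991), with overlap. Npas4, at 10.6 to 140 CPM against 7.83 to 83.6 CPM, differed by 0.79 (SE 0.147) and was not called without pairing (adjusted p = 0.37), in males alone (adjusted p = 0.0693) or without the pairs low in Fos (adjusted p = 0.0540). Fos itself was not called (-0.35, adjusted p = 0.197). Of 20 later activity genes, 8 were higher and 4 lower, 60% in all (5, or 25%, without pairing). The neuropeptide gene Tac1 differed by 1.06 (SE 0.108) and Nrn1, which promotes neurite growth, by -0.78 (SE 0.118).

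Cell cycle and p53 target genes split, beside 58.1% of all genes called, and 38.5% without pairing. Of 24 p53 targets, 7 were higher and 9 lower, 66.7% in all (33.3% without pairing). Cdkn1a, which encodes the cell cycle inhibitor p21, was at 53.7, 94.0 and 125 CPM in the Chd8, 195, 224 and 238 CPM in the Med13l and 103, 134 and 147 CPM in the nontargeting libraries (-1.29, SE 0.123). Its Med13l libraries lay above all others. Ccng1 and Trp53inp1, both p53 targets, differed by -0.89 (SE 0.0614) and -0.88 (SE 0.0689), while Ei24 and Plk2 differed by 1.23 (SE 0.0847) and 0.89 (SE 0.104). Of 27 genes of the cell cycle and DNA replication, 10 were higher and 7 lower, 63.0% in all (40.7% without pairing). The cyclin E genes Ccne1 and Ccne2 differed by -1.24 (SE 0.116) and -1.53 (SE 0.154), and the mitotic motor Cenpe by 1.34 (SE 0.157).

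In the Wnt pathway 6 of 24 genes were higher and 5 lower, 45.8% in all (33.3% without pairing). Wnt5a, a ligand of the noncanonical branch, was at 14.0, 21.0 and 33.4 CPM against 3.25, 7.04 and 7.56 CPM (1.73, SE 0.163), and Sfrp1, a secreted Wnt antagonist, at 58.1, 64.6 and 80.4 CPM against 16.8, 26.8 and 36.4 CPM (1.32, SE 0.125). Both were low in the Med13l knockdown, at -1.46 and -1.49 from nontargeting. Dvl3, which relays the Wnt signal in the cell, and the receptor Fzd3 were lower in the Chd8 knockdown (-1.13, SE 0.0889, and -1.22, SE 0.133) and at -1.43 and -1.75 from nontargeting there.

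Other lists were mixed, and their shares called are to be read beside the same 58.1% and 38.5% of all genes. Of 27 splicing regulators, 10 were higher and 8 lower, 66.7% in all (44.4% without pairing), with Celf5 at 0.97 (SE 0.0787), Elavl3 at -1.36 (SE 0.0687) and Rbfox1 at -1.06 (SE 0.0627). Elavl3 and Rbfox1, both neuronal RNA-binding proteins, were at -1.36 and -1.14 from nontargeting in the Chd8 knockdown and at 0.01 and -0.08 in the Med13l knockdown. Of 24 genes of the integrated stress and unfolded protein response, 11 were lower and 2 higher, 54.2% in all, but 8.33% were called without pairing. Of 31 lysosomal genes, 13 were lower and 7 higher, 64.5% in all (38.7% without pairing). Of 28 collagens and laminins, 12 were higher and 3 lower, 53.6% in all (32.1% without pairing), with Col5a2 at 14.5 to 49.8 CPM against 6.18 to 9.47 CPM (1.67, SE 0.18), and 7.98 to 11.5 CPM with nontargeting shRNA. Of 10 interferon-stimulated genes tested, from a list of 22, 3 were higher and 3 lower. They included Oasl2, at 0.834 to 3.71 CPM against 0.196 to 0.626 CPM.

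Markers of cell types were measured beside these lists, and their calls stand beside 58.1% of all genes called, and 38.5% without pairing. In bulk samples fewer cells of a type and less RNA per cell cannot be told apart. The summed level of 20 interneuron markers was 3266 to 4413 CPM in the Chd8, 2041 to 3475 CPM in the Med13l and 3711 to 5192 CPM in the nontargeting libraries, so the Med13l libraries lay below all nontargeting libraries. The Chd8 and Med13l ranges overlapped, but the Chd8 library had the higher sum in 6 of 6 pairs. Of these markers 9 were higher and 3 lower in the Chd8 knockdown, 60.0% in all (25.0% without pairing), so near the share of all genes or below it. The peptide gene Vip differed by 1.52 (SE 0.182, not called without pairing, adjusted p = 0.0532), and Gad2, which makes GABA, by -0.46 (SE 0.0837). The 9 excitatory neuron markers summed to 888 to 1296, 897 to 1490 and 1013 to 1247 CPM in the same order, with 2 called higher and 3 lower, among the latter Slc17a7, the vesicular glutamate transporter, at -0.89 (SE 0.104).

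Of 22 astrocyte and radial glia markers, 7 were higher and 6 lower, 59.1% in all beside 58.1% of all genes. Without pairing 7 were called, 31.8% beside 38.5%. In the oligodendrocyte and the endothelial lists that follow, 50% of the members tested were called. The astrocyte list summed to 468 to 1225 CPM in the Chd8 and 537 to 844 CPM in the Med13l libraries, higher with Chd8 shRNA in 4 of 6 pairs. Fabp7, at 64.8 to 698 CPM against 38.3 to 167 CPM (1.62, SE 0.199), and Gja1 (1.45, SE 0.19) were on the higher side, and Aldoc on the lower (-1.28, SE 0.109), all 3 with overlap. Oligodendrocyte lineage markers, of which 8 of 13 were tested, summed to 45.2 to 60.2 CPM against 52.0 to 71.7 CPM. The sum was lower with Chd8 shRNA in 6 of 6 pairs, although 3 members were called higher and 1, Cnp, lower (-1.31, SE 0.108). The lower sum rested on Cnp, at a mean of 9.75 CPM in the Chd8 and 24.5 CPM in the Med13l libraries. Of 13 microglia markers 3 could be tested and 2 were higher. They summed to 7.04 to 11.1 CPM against 5.45 to 7.06 CPM, higher with Chd8 shRNA in 6 of 6 pairs, and to 9.05 to 13.7 CPM with nontargeting shRNA, above all Med13l libraries. The defining genes Cx3cr1, Tmem119 and C1qa were at 0 in 9, 8 and 9 of the 12 libraries. Markers of endothelial cells, pericytes and fibroblasts, of which 10 of 12 were tested, summed to 24.3 to 38.99 CPM against 28.9 to 63.7 CPM, lower with Chd8 shRNA in 6 of 6 pairs, with 2 members higher and 3 lower. With nontargeting shRNA the sum was 40.05 to 79.1 CPM, above all Chd8 libraries. The part of cell makeup in the differences of the lists above was not tested.

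The difference between the knockdowns moved with gene length. Of the genes tested, 99.4% had a span in RefSeq. The median span was 38.5 kb for genes higher in the Chd8 knockdown, 18.9 kb for genes lower and 24.4 kb for all. Among 3618 genes under 10 kb, 20.3% were higher and 34.9% lower, with a median of -0.12. Among 521 genes over 300 kb, 46.4% were higher and 18.04% lower, with a median of 0.23. Both medians had the same sign in 6 of 6 pairs, from -0.32 to -0.05 for the short and from 0.10 to 0.59 for the long genes. The largest value of each came from the pair of female replicate 1, which was low in Fos. Against nontargeting the median of the longest genes was -0.21 in the Med13l and 0.01 in the Chd8 knockdown, and that of the shortest 0.10 and -0.02. The median span was 319 kb for the glutamate receptor list, 148 kb for axon guidance and 93.7 kb for the cortical factors, but 7.13 kb for oxidative phosphorylation and 3.16 kb for ribosomal proteins. The part of gene length in the differences of these lists was not tested.

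**Figure D4:**
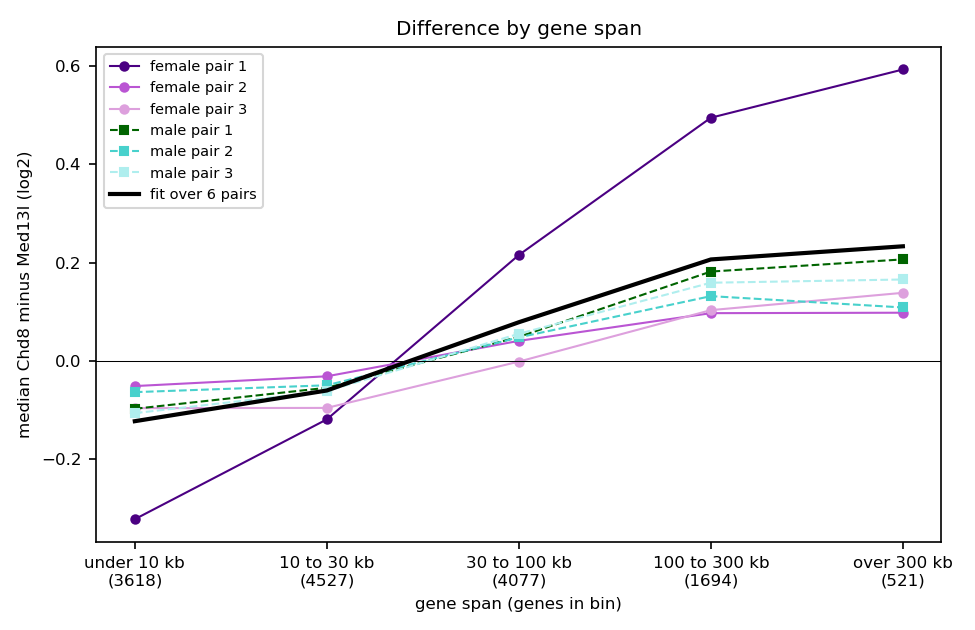
Median log2 difference (vertical, Chd8 minus Med13l) in 5 bins of gene span (horizontal, number of genes in brackets) for each of the 6 pairs and for the fit over all pairs (black line). The medians are below 0 in the shortest bin and above 0 in the longest bin in all 6 pairs, with the widest swing, -0.32 to 0.59, in female pair 1.

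The female and the male cultures each gave the comparison without sharing a library. In females alone 3308 of 14668 genes were called (22.6%), and in males alone 7859 of 14579 (53.9%). The count in females moved with single libraries, to 2009 without Chd8 female replicate 3, 2020 without Med13l female replicate 3 and 5274 without Med13l female replicate 1, and without pairing it was 193. Of the 14386 genes tested in both, 3179 were called in both, all 3179 in the same direction. They were 96.5% of the calls in females and 40.6% of the calls in males. Of the 3293 genes called in females, 3291 had the same direction in males. Across these genes, which are not independent, Pearson's r of the log2 differences was 0.969, and over all genes tested in both it was 0.875.

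**Figure D5:**
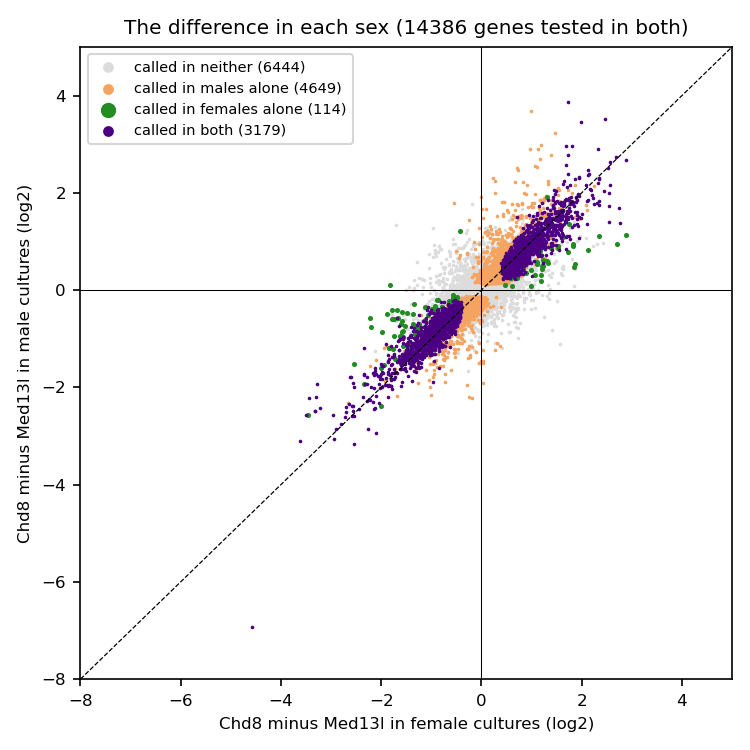
Log2 difference between the knockdowns in male cultures (vertical) against that in female cultures (horizontal) for 14386 genes, colored by the sex in which each passed the test, with a dashed line of equality. The 3179 genes called in both lie in the quadrants of equal sign, and Amelx is the point farthest from 0.

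The test of a sex difference itself called 0 genes (0%) in edgeR, with 189 at an unadjusted p under 0.05, and 0 in DESeq2, with 147. Both numbers are below what an unadjusted p under 0.05 would give by chance over 14522 genes. With 3 libraries per knockdown and sex, 0 calls do not show that the sexes agree. The 3 genes with the smallest p were Fzd3, Med12l and Adcy9, an adenylyl cyclase. Fzd3 differed by -0.85 in females and -1.59 in males, Med12l by -0.62 and -1.17, and Adcy9 by -0.39 (adjusted p = 0.0931) and -1.0004, in each case with an adjusted p for the sex difference of 0.999987. Adcy9 over both sexes differed by -0.69 (SE 0.121).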

How the data were processed

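RNA was sequenced from 66 cultures, of which 24 libraries were used. The authors deposited a table of read counts per gene, not normalized. STAR, featureCounts and the build mm10 are named per the submitters' processing notes, while versions, annotation and the use of strand are not given in the sources used here. Of 48716 rows, 18483 without a symbol (0.717% to 1.14% of counts) were left out, and 149 repeated symbols were summed. The columns of a luciferase hairpin were taken as the nontargeting group by elimination, and 6 columns of no sample were not used. Of counts from 1 to 20, 27.1% were odd, against 49.2% of counts of at least 1000, so halved counts were tried.

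The 12 libraries were scaled by TMM (factors 0.943 to 1.03), filtered with filterByExpr and tested with edgeR 4.0.16 (quasi-likelihood F test, robust, R 4.3.3), with sex and replicate number as a block, which left 5 residual degrees of freedom. Adjustment was by Benjamini-Hochberg over all genes tested. Values in CPM use TMM-scaled totals, and SE follows from the F statistic. Libraries of equal sex and number were taken as pairs. Their deviations from group means correlated at 0.520, 0.691 and 0.257 in females and 0.217, 0.344 and 0.515 in males, each over 0.1. Correlations between libraries of unequal number are not given for comparison, so the pairing is an assumption of the main test. A fit of 18 libraries with the same block gave differences from nontargeting. There the Med13l male replicate 2 correlated at -0.0007, so the numbers do not pair those groups throughout.

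Named genes were the targets, per direction the 10 with the smallest p and no overlap and the 5 with the largest difference at 1 CPM or more, the 6 with the largest departures on opposite sides of nontargeting, up to 3 per list and direction, and the 3 with the smallest p for sex; some of them are not reported here. The 35 lists, the comparison and the rule were chosen with earlier results of these data known. Alternatives were RLE scaling, other filters, DESeq2 1.42.0, no pairing, all 66 libraries, each sex alone and each library left out. Coordinates and spans are from RefSeq (GRCm38.p6, the mm10 build), and the annotated overlaps from GENCODE M21. Genes with few counts carry more counting error, and counts of amplified reads are not independent molecules.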

Additional observations from a re-analysis of the deposited data

Results flagged for a closer look

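In 216 groups of 6 libraries, for the 108 genes of the text with a level per library, 20 (9.26%) held a library apart from the other 5 by Dixon's criterion. Chance gives about 1 in 20 groups. Of the 20, 4 were Med13l female replicate 1 and 4 were Chd8 female replicate 1, which form the female pair low in Fos. No cause was tested.

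In Med13l female replicate 1, Chd8 was at 68.0 CPM beside 91.1 to 101 CPM in the other 5 libraries. Dpy30 was at 126 CPM beside 46.9 to 76.4 CPM, Uqcrh at 713 CPM beside 238 to 403 CPM and Ccnc at 103 CPM beside 42.3 to 58.5 CPM. In Chd8 female replicate 1, Ccnc was likewise high, at 98.3 CPM beside 45.4 to 53.6 CPM, as were Trp53inp1 at 67.4 CPM, Vip at 37.0 CPM and Amelx at 0.693 CPM.

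In Med13l female replicate 2, Arl2bp was at 63.5 CPM, Dstn at 154 CPM and Tcf4 at 352 CPM, all above the other 5. Med13l female replicate 3 had Wnt5a at 3.25 CPM, below 6.40 to 7.56 CPM, and Med13l male replicate 3 had Kcnq3 at 203 CPM, above 86.8 to 110 CPM. Chd8 male replicate 3 had Med13l at 100.2 CPM, above 70.2 to 79.2 CPM, Nrn1 at 28.5 CPM, below 52.1 to 61.4 CPM, and Cdk8 at 34.1 CPM, below 39.8 to 42.8 CPM. Chd8 female replicate 2 had Lin7c at 86.2 CPM, above the others, and Egr1 at 29.99 CPM, below them. Chd8 female replicate 3 had Ints14 at 30.6 CPM, above the others, and Cenpe at 2.99 CPM, below them.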

How the results depend on the processing

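The count of genes called between the knockdowns stayed within 1.5 times of 8441 under RLE scaling, other filters, DESeq2, halved counts, all 66 libraries and males alone. It was 5595 without the replicate block, 3308 in females alone and 1270 with a difference of at least 1, and 7295 to 8819 with each library left out. A library left out leaves its partner without a pair, so 5 pairs remain. In females alone the count was 193 without the replicate block (70 higher, 123 lower), 6230 in a fit of all 66 libraries with the block, and 2009 to 5274 with each library left out. In males alone it was 3129 in the fit of all 66 libraries without the block, and 6579 to 6976 with each library left out. The sex difference gave 0 calls in every setting run, with 55 to 713 genes at an unadjusted p under 0.05. Without the block, added after seeing the data, 3872 genes differed from nontargeting in the Chd8 and 4185 in the Med13l knockdown. Of 207 genes chosen by the rule, 140 kept their call in all 23 settings, 67 lost it in some, and 0 reversed. Causes were not tested. Single libraries were at 0 for some genes of low level, and the part of depth in this was not tested.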

Other observations

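Genes of glycolysis and lactate export stood out after Slc16a3 and Mgarp were seen, so the lists in this paragraph were chosen after values were known and carry no test of their own. Of 22 such genes, 21 were lower and 1 higher in the Chd8 knockdown, beside 29.2% lower among all genes, with a median of -1.18 and of -2.01 to -0.69 in the 6 pairs. Against nontargeting, 14 were lower and 0 higher in the Chd8 knockdown, beside 22.9% and 21.2% of all genes. In the Med13l knockdown 14 were higher and 2 lower, beside 24.3% and 24.3%. Gapdh was at 932 CPM ± 235 (SD, n = 6) in the Chd8, 2197 CPM ± 479 (SD, n = 6) in the Med13l and 1336 CPM ± 153 (SD, n = 6) in the nontargeting libraries (log2 difference -1.24, SE 0.208). Tpi1, which interconverts the triose phosphates, was at 477 CPM ± 150.05 (SD, n = 6) against 1404 CPM ± 335 (SD, n = 6). Pgk1, which makes ATP in this pathway, differed by -1.79 (SE 0.259), Ldha, which makes lactate, by -1.11 (SE 0.174) and the glucose transporter Slc2a1 by -1.42 (SE 0.193). The exception was Pgam1, at 0.39 (SE 0.0799). Gapdh, Pgk1 and Ldha did not pass the test in males alone (adjusted p = 0.0552, 0.0556 and 0.0576). Of 18 other genes that low oxygen induces, 12 were lower and 2 higher, with a median of -0.61. Bnip3, a mitophagy receptor, differed by -1.73 (SE 0.247) and Ddit4, an inhibitor of mTORC1, by -2.13 (SE 0.337), neither passing in males alone (adjusted p = 0.0517 and 0.104).

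Genes of class I antigen presentation, also listed after H2-K1 was seen, were lower in the Chd8 knockdown in 14 of 16 cases and higher in 0, beside 29.2% lower among all genes. Without H2-K1 and H2-Q6, which were seen before the list was drawn up, 12 of 14 were lower. The list had a median of -1.15 and of -2.19 to -0.86 in the 6 pairs. With a filter of at least 1 CPM in at least 6 libraries, 9 were called, all of them lower. Tap1, a subunit of the peptide transporter, was at 3.91 CPM ± 1.17 (SD, n = 6) in the Chd8, 10.6 CPM ± 1.72 (SD, n = 6) in the Med13l and 7.94 CPM ± 1.56 (SD, n = 6) in the nontargeting libraries. B2m, the shared light chain, differed by -0.63 (SE 0.155), by -0.36 without the 2 pairs low in Fos, and did not pass in females alone (adjusted p = 0.0735). H2-D1 differed by -1.09 (SE 0.187), with the limit on near-identical class I copies given above.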
